A study of Mus musculus with 18 samples.

Results

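The SLC25 family holds mainly carriers of the inner mitochondrial membrane. These exchange metabolites, nucleotides, amino acids and cofactors between the cytosol and the mitochondrial matrix. Members were all genes whose symbol is Slc25a followed by a number and for which the array has a probe set named for that gene alone. This gave 44 of the 18193 genes that could be named this way, read by 93 probe sets. Where a gene had several, the one brightest on average across all 18 arrays was used. In the liver these carriers serve fat oxidation (acylcarnitine import), fat synthesis (citrate export), the urea cycle (ornithine and aspartate exchange) and energy supply (exchange of ADP for ATP). In the kidney tubule they serve mainly oxidative ATP production. The transcript levels below say nothing of the amount or activity of the carriers.

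The study gave male C57BL6 mice of 20 g an intraperitoneal injection of D-galactosamine hydrochloride (GalN), a toxin that injures the liver, at 4.5 g/kg, and took liver and kidney at 24 h or 48 h. Control mice, called sham here as on the labels, received saline and were killed at 24 h, so the 48 h groups have no control taken at 48 h. The organs were perfused in place with buffer and an RNA preservative, RNA came from 30 mg of whole tissue, and 3 arrays were hybridised for each organ at sham, 24 h and 48 h. The study's text names 3 mice a group but can also be read as equal mixing of their RNA, and nothing in it ties a letter (A, B or C) of the liver arrays to a mouse of the kidney arrays. The p-values therefore measure only the spread between these samples. Because whole tissue was used, fewer cells of a type and less RNA per cell cannot be told apart.

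Values are log2 intensities after background correction and normalization by gcRMA, so a difference of 1 is a 2-fold change. The lowest value on the arrays was 2.213, and a reading less than 1 above it, or an identical reading that recurred on at least 3 arrays for the same probe set, was treated as background. A gene was tested where it lay above the array's median on at least 3 arrays, and a difference was called where the p of the limma test, adjusted over all genes tested (Benjamini-Hochberg), was under 0.05. Of the 44 members, 39 were tested in liver and 37 in kidney. Slc25a2 (ornithine), Slc25a18 (glutamate), Slc25a27 (an uncoupling protein relative), Slc25a31 (the germ cell ADP/ATP carrier) and Slc25a54 were at background on all 18 arrays. Slc25a41 and Slc25a53 passed the filter in liver only.

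The array medians ran from 2.36 to 2.43 and the correlations between arrays of one group from 0.983 to 0.998. The organ labels matched their markers. A summed level is the log2 of the sum of the unlogged intensities, so the brightest genes weigh most. The summed level of 8 hepatocyte markers was 18.67 to 18.71 in sham liver and 16.39 to 16.68 in sham kidney. Of these 8, 7 were called higher in liver, with a median log2 difference of 9.40. The summed level of 8 proximal tubule markers was 17.53 to 17.72 in sham kidney and 9.21 to 10.16 in sham liver. Liver 48 h C stood apart in RNA quality, with a 3' to 5' gap of 2.56 for the actin control probe sets against 1.48 to 2.02 on the other 17 arrays.

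In sham animals, many of the carriers differed in level between liver and kidney. Of 39 members tested, 27 (69.2%) were called between the organs, against 47.6% of all genes. Levels of 12 members were higher in liver (30.8%, against 18.9% of all genes) and of 15 higher in kidney (38.5%, against 28.7% of all genes). The share of called members that were higher in liver was 44.4%, and 58.6% when each array was centred on its percentile 75, which moved the median of all genes from -0.05 to 0.34.

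Slc25a47, a carrier found mainly in liver whose substrate is not settled, read 13.02, 13.20 and 13.49 in sham liver and 2.27, 2.46 and 2.46 in sham kidney. The kidney readings were all at background, so liver was at least 1832-fold higher (log2 difference 10.84, SE 0.26, adjusted p = 4.54e-14). Slc25a22, a glutamate carrier, was 16.9-fold higher in liver (11.39, 11.37 and 10.79 against 7.12, 6.90 and 7.30, adjusted p = 5.26e-07). The acylcarnitine carrier Slc25a20 was 4.53-fold higher in liver (adjusted p = 2.90e-06) and the ornithine carrier Slc25a15, a step of the urea cycle, 3.74-fold higher (adjusted p = 2.10e-07).

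In the other direction stood Slc25a4, the ADP/ATP carrier of heart and muscle, also called Ant1. It read 15.01, 14.99 and 14.80 in sham kidney and 8.47, 7.48 and 7.46 in sham liver, a 140-fold difference (log2 difference -7.13, liver minus kidney, SE 0.24, adjusted p = 3.84e-12), which was -5.01 with the mean of its 4 probe sets. Slc25a5 (Ant2), which has the same activity, differed only 1.63-fold (adjusted p = 2.13e-06), with sham means of 14.28 ± 0.12 in liver and 14.99 ± 0.013 in kidney (SD, n = 3). Slc25a36, a pyrimidine nucleotide carrier, was 46.0-fold higher in kidney (log2 difference -5.52, adjusted p = 7.93e-10, and -4.25 with the mean of its 3 probe sets), while the other pyrimidine nucleotide carrier, Slc25a33, was 1.87-fold higher in liver (adjusted p = 0.0292, and 0.151 without liver sham C). The aspartate/glutamate carriers also went opposite ways: Slc25a13 (citrin) was 2.37-fold higher in liver (adjusted p = 0.00255) and Slc25a12 (aralar) 3.47-fold higher in kidney (adjusted p = 3.03e-06). With the mean of all its 3 probe sets, the Slc25a12 difference was -0.58 in place of -1.80. The NAD carrier Slc25a51 was 2.95-fold higher in kidney by its main set (adjusted p = 3.93e-05), but with the mean of its 3 sets the call was lost (adjusted p = 0.243).

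Of the 7 tested members without a settled substrate, Slc25a47 was higher in liver, 2 were higher in kidney and 4 were not called (median -0.05, as over all genes). Slc25a34 was 6.39-fold higher in kidney (7.26, 7.18 and 7.70 against 4.87, 4.28 and 4.95, adjusted p = 3.12e-07). Slc25a35 was at least 7.79-fold higher (adjusted p = 8.64e-07), a bound because a liver reading lay at background. Slc25a30, an uncoupling protein relative, read 9.82, 9.74 and 10.70 in kidney and 3.10, 5.11 and 9.66 in liver, so that liver C lay just under the kidney arrays while A was at background. Its difference of -4.13 (SE 1.2, adjusted p = 0.00930) was -2.54 with the mean of its 5 probe sets, and no fold is given. Not called between the sham organs were 12 members: Slc25a14, Slc25a17, Slc25a28, Slc25a29, Slc25a37, Slc25a40, Slc25a41, Slc25a42, Slc25a45, Slc25a46, Slc25a48 and Slc25a53. Their differences ran from -0.44 to 0.74.

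**Figure D1:**
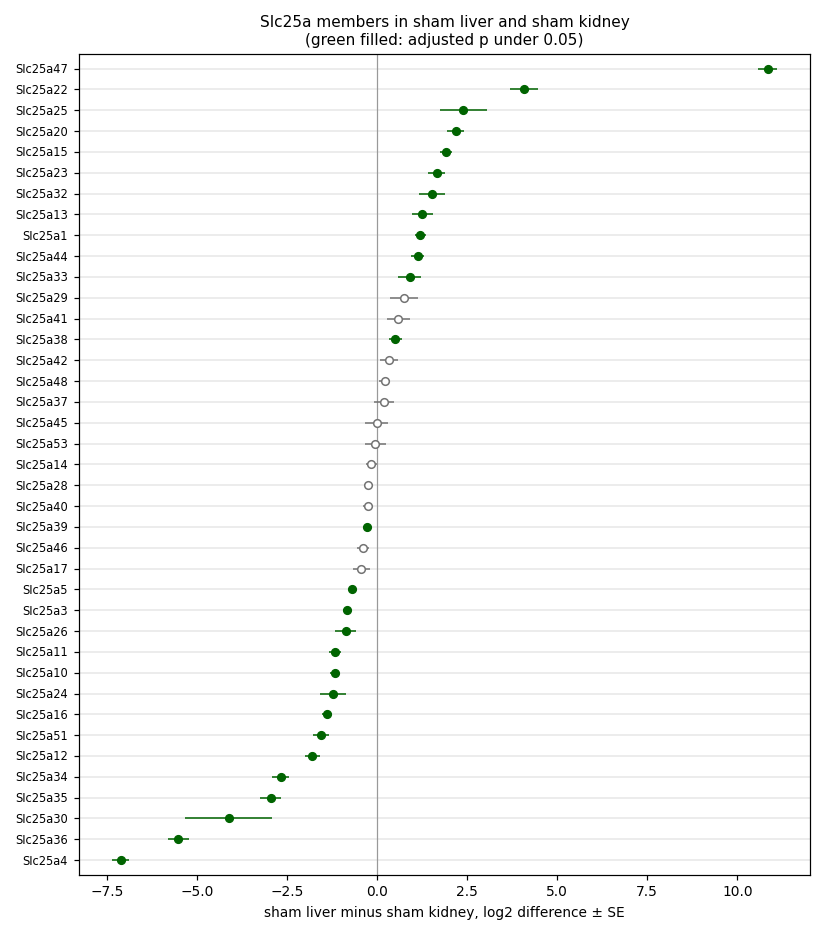
Log2 difference between sham liver and sham kidney for the 39 tested members, with bars for the SE (3 arrays a group). Green filled points passed the test: 12 lie to the right (higher in liver, Slc25a47 at 10.84) and 15 to the left (higher in kidney, Slc25a4 at -7.13).

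At 24 h after GalN the transcript levels of the carriers of citrate, dicarboxylates, oxoglutarate, acylcarnitine, ornithine and aspartate were lower in liver than in sham. The values are normalized and do not measure the total RNA of the tissue. Of 39 members tested, 16 (41.0%) were called, against 32.9% of all genes. Of these, 13 fell (33.3%, against 15.0% of all genes) and 3 rose (7.69%, against 17.9% of all genes). On 15 members all 3 arrays at 24 h lay below all 3 sham arrays (22.5% of all genes did so), and on 3 all lay above (27.3% of all genes). The median difference was -0.25 over the members and 0.00 over all genes tested. The share of called members that rose was 18.8%, and 7.14% with arrays centred on percentile 75.

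All 3 carriers of di- and tricarboxylates and oxo-acids fell, with a median of -1.56. Slc25a1 exports citrate, the carbon source for fat synthesis in the cytosol. It read 11.79, 11.66 and 11.68 in sham liver and 10.41, 9.60 and 9.95 at 24 h. Every 24 h array lay more than 1 below every sham array, and the fall was 3.30-fold (log2 difference -1.72, SE 0.19, adjusted p = 9.25e-04). The dicarboxylate carrier Slc25a10, which exchanges malate or succinate for phosphate, read 12.11, 12.31 and 11.89 in sham and 10.60, 10.42 and 10.60 at 24 h, a 2.95-fold fall (log2 difference -1.56, SE 0.13, adjusted p = 3.38e-04). The oxoglutarate carrier Slc25a11, one arm of the malate-aspartate shuttle, read 10.49, 10.40 and 10.01 in sham and 9.27, 8.83 and 9.02 at 24 h, a 2.39-fold fall (log2 difference -1.26, SE 0.17, adjusted p = 0.00176).

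Both aspartate/glutamate carriers, the other arm of that shuttle, fell too. Slc25a13, the form that predominates in liver and supplies aspartate to the urea cycle, showed the largest fall among the tested members. It read 11.70, 11.75 and 11.60 in sham and 9.62, 9.08 and 8.13 at 24 h, 6.67-fold lower (log2 difference -2.74, SE 0.39, adjusted p = 0.00215). The 24 h arrays were spread more widely (SD 0.75) than the sham arrays (SD 0.077), without overlap. Slc25a12 fell 1.88-fold, from 8.05, 7.81 and 7.70 to 6.57, 6.82 and 7.44 (adjusted p = 0.0240), a call that was lost when liver 24 h A or B or liver sham A or B was left out (adjusted p 0.0637 to 0.0764). With the mean of its 3 probe sets the difference was -0.32. The glutamate carrier Slc25a22 was not called (log2 difference -0.45, adjusted p = 0.515).

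The acylcarnitine carrier Slc25a20, through which long-chain fatty acids enter the matrix for oxidation, read 11.70, 11.78 and 11.96 in sham liver and 10.82, 10.59 and 10.04 at 24 h. It fell 2.51-fold without overlap (log2 difference -1.33, SE 0.22, adjusted p = 0.00387).

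The amino acid carriers moved both ways. Slc25a15, which brings ornithine into the matrix for the urea cycle, fell 2.45-fold, from 14.55, 14.37 and 14.08 to 12.69, 13.11 and 13.33 (log2 difference -1.29, SE 0.20, adjusted p = 0.00304). The carrier of basic amino acids Slc25a29 rose 2.38-fold, from 5.55 to 6.22 on the sham arrays (mean 5.92 ± 0.34, SD, n = 3) to 6.98, 6.62 and 7.93 (adjusted p = 0.0349). That call was lost when liver 24 h A or C, 48 h A or B, or any of the sham arrays was left out (adjusted p 0.0510 to 0.111), and with the mean of its 5 probe sets the rise was 0.56. Slc25a44, linked to branched-chain amino acid entry, rose 1.43-fold (adjusted p = 0.0421), and this call was likewise lost without liver 24 h B or C, 48 h A or B, or sham A or C (adjusted p 0.0597 to 0.124) and with the mean of its probe sets (0.22, adjusted p = 0.143). The glycine carrier Slc25a38, needed for haem synthesis, had a difference of -0.51 that was not called (adjusted p = 0.0617), although its 24 h and sham readings did not overlap.

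Among the 8 carriers of coenzymes, cofactors and glutathione, 2 fell and 1 rose. Slc25a42, a coenzyme A carrier, read 8.49, 9.05 and 9.23 in sham and 7.09, 7.09 and 7.03 at 24 h, a 3.61-fold fall (log2 difference -1.85, SE 0.23, adjusted p = 0.00134). With the mean of its 2 probe sets the difference was -0.93. Slc25a16, also linked to coenzyme A, fell 1.62-fold (adjusted p = 0.00280). Slc25a17, a coenzyme A, FAD and NAD carrier that sits in the peroxisome rather than the mitochondrion, rose 3.06-fold, from 8.16, 7.87 and 7.69 to 9.53, 9.81 and 9.23 (log2 difference 1.61, SE 0.27, adjusted p = 0.00417). With the mean of its 2 probe sets the rise was 0.82. Of the glutathione carriers, Slc25a39 had a difference of 0.06 (adjusted p = 0.698) and Slc25a40 one of 0.19 (adjusted p = 0.321).

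Of the 7 tested adenine nucleotide and phosphate carriers, 2 fell. Slc25a5, the main ADP/ATP carrier of liver, fell 1.50-fold, from 14.37, 14.33 and 14.14 to 13.84, 13.56 and 13.69 (adjusted p = 0.00355). Slc25a23, a calcium-regulated carrier of ATP-magnesium and phosphate, read 11.17, 11.46 and 11.65 in sham and 10.62, 10.29 and 10.13 at 24 h, a 2.12-fold fall (log2 difference -1.08, SE 0.30, adjusted p = 0.0290). This call was lost without liver 24 h B or C or sham B or C (adjusted p 0.0780 to 0.0921). The phosphate carrier Slc25a3, which feeds ATP synthase, had a difference of -0.20 that was not called (adjusted p = 0.304).

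Slc25a47 read 13.02, 13.20 and 13.49 in sham liver and 11.99, 11.53 and 10.94 at 24 h, a 3.37-fold fall (log2 difference -1.75, SE 0.33, adjusted p = 0.00701). Slc25a48 is counted among the 13 called lower, but all its liver readings lay at background (2.81 to 3.18), so no fold is given. That call was kept in 3 of 21 other settings and lost without any of 8 single arrays (adjusted p 0.0529 to 0.132). Neither mitoferrin, the iron carriers Slc25a28 and Slc25a37, and neither pyrimidine nucleotide carrier was called. Slc25a30, an uncoupling protein relative, could not be settled: it read 3.10, 5.11 and 9.66 in sham liver and 8.85, 9.10 and 10.08 at 24 h, so sham C lay within the range of the treated arrays and sham A and B far below it (log2 difference 3.39, SE 1.6, adjusted p = 0.151).

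The remaining members had no call in liver at 24 h. The calcium-regulated carriers of ATP-magnesium and phosphate Slc25a24 and Slc25a25 stood at 0.95 (adjusted p = 0.155) and -0.99 (adjusted p = 0.394). Slc25a25 was spread over 7.75, 9.67 and 10.17 at 24 h. The S-adenosylmethionine carrier Slc25a26 stood at -0.13, the NAD carrier Slc25a51 at -0.76 (adjusted p = 0.0595) and the folate carrier Slc25a32 at 0.73 (adjusted p = 0.136). Slc25a34, Slc25a35, Slc25a45 and Slc25a46, without a settled substrate, lay between -0.39 and 0.20. Slc25a14, Slc25a41 and Slc25a53 had background readings in both groups compared.

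**Figure D2:**
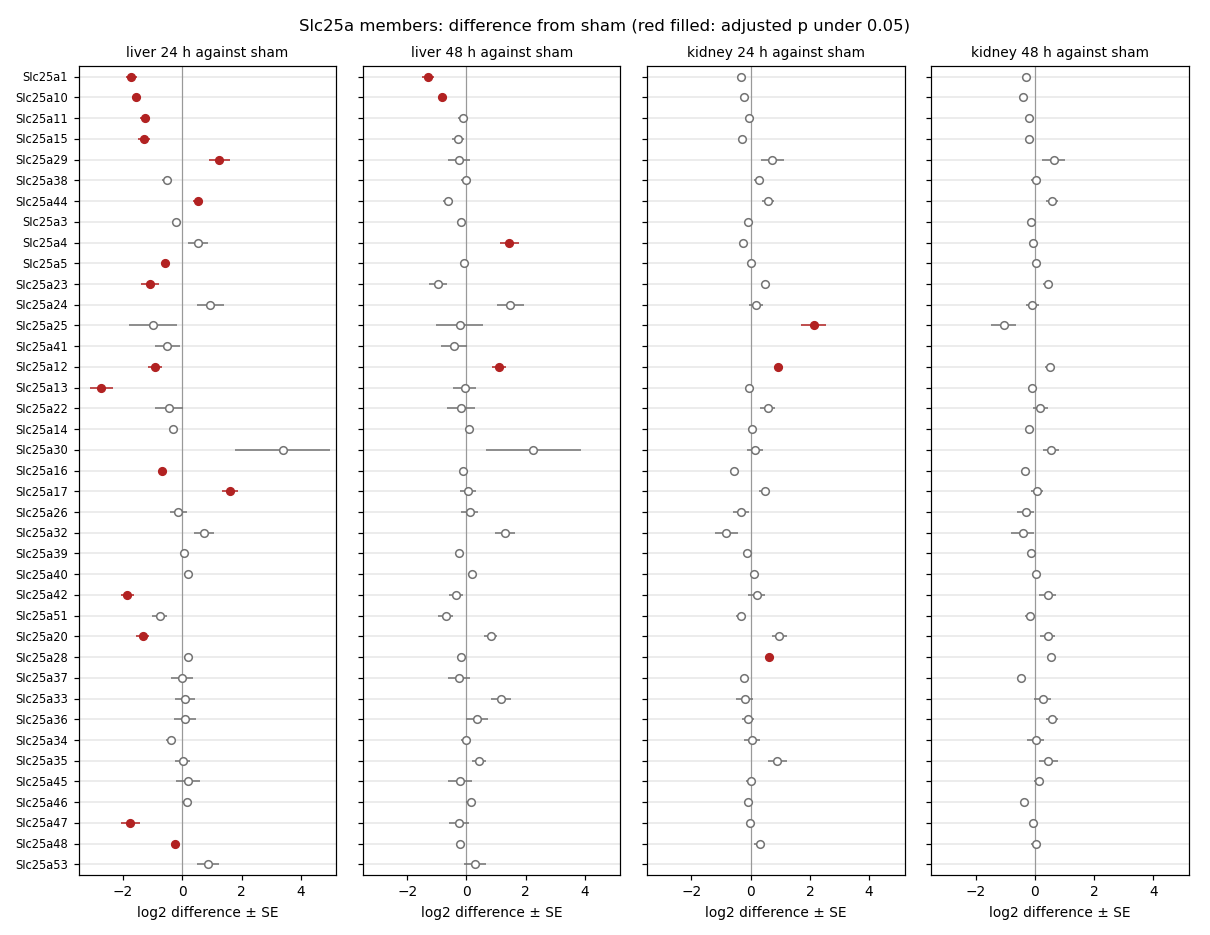
Log2 difference from sham for every tested member, in liver and kidney at 24 h and 48 h, ordered by what the carriers transport, with bars for the SE (3 arrays a group). Red filled points passed the test: 13 below and 3 above 0 in liver at 24 h, 2 below and 2 above in liver at 48 h, 3 above in kidney at 24 h and none in kidney at 48 h.

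The rank product test that the study's text names, which uses ranks of the 9 array pairs, called far fewer genes. For liver at 24 h it called 2 members, Slc25a13 lower and Slc25a30 higher. Of the 16 limma calls, Slc25a13 alone was kept under each of the 22 other settings tried. Another 10 (Slc25a1, Slc25a5, Slc25a10, Slc25a11, Slc25a15, Slc25a16, Slc25a17, Slc25a20, Slc25a42 and Slc25a47) were lost under rank product only.

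At 24 h the summed level of 8 hepatocyte markers was 18.59 to 18.67, close to the sham range of 18.67 to 18.71, and none of the 8 was called. That of 9 macrophage markers was 14.27 to 14.44 against 12.79 to 13.39 in sham, with 5 of 9 higher, and that of 8 endothelial markers 10.57 to 11.65 against 9.89 to 10.29, with 5 of 8 higher. Of 7 stellate cell and matrix markers 2 were higher. The share of all genes called higher in liver at 24 h was 17.9%. The 6 erythroid markers summed to 10.31 to 10.55 in sham liver, 9.61 to 9.96 at 24 h and 8.63 to 9.17 at 48 h. Of 4 tested, 1 was called at each time, Alas2, the erythroid enzyme of haem synthesis, which fell by 0.65 (adjusted p = 0.0294) and by 1.70 (adjusted p = 0.00479) on the log2 scale. Of the neutrophil markers Mpo, Ngp and Camp, and of the lymphocyte markers Cd3e, Cd3g, Cd79a, Ms4a1 and Nkg7, all readings lay at background on the 18 arrays. The part of these shifts in the carriers' values was not tested.

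Enzymes that work with the carriers were listed by pathway, and these lists were chosen with earlier results of these data known. Of all genes tested in liver at 24 h, 15.0% were lower and 17.9% higher. Of 8 enzymes of citrate use and fat synthesis, 4 fell in liver at 24 h and none rose (median -1.77), among them Acly, which splits exported citrate, at -2.38 (adjusted p = 0.00153), and Elovl6, which elongates fatty acids, at -2.87 (adjusted p = 0.00162). Of 8 urea cycle and ornithine enzymes, 4 fell (median -0.63), with Oat (ornithine aminotransferase) at -1.76 (adjusted p = 0.00144) and Cps1, which forms carbamoyl phosphate, at -0.52 (adjusted p = 0.00364). Of 6 enzymes of the malate-aspartate shuttle and glutamate, Got1 (the cytosolic aspartate aminotransferase) fell, by 2.52 on the log2 scale (adjusted p = 9.34e-05), and the median was -0.23.

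Of 9 enzymes of the carnitine shuttle and of fatty acid oxidation, 2 fell (median -0.28), against 15.0% of all genes lower. These were Cpt1a, which forms acylcarnitines, at -1.98 (adjusted p = 0.00140), and Etfdh, which passes electrons from fat oxidation to the respiratory chain, at -1.13 (adjusted p = 0.0178). Of 9 haem and iron-sulfur enzymes, 4 fell (median -0.83), with Alad at -2.10 (adjusted p = 0.00118). Of 7 mitochondrial folate and one-carbon enzymes, 2 fell (median 0.05), Gcsh at -0.79 (adjusted p = 0.00912) and Shmt2 at -0.83 (adjusted p = 0.0315).

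Other inner-membrane transporters and relatives, without an Slc25a symbol, were listed too. The list includes the uncoupling proteins (Ucp) and the Mtch genes, which belong to the SLC25 family. Of 12 tested, 6 fell and none rose (median -0.95), among them Micu2, a regulator of the calcium uniporter, at -2.08 (adjusted p = 1.14e-04), and Abcb10, an exporter linked to haem synthesis, at -2.50 (adjusted p = 1.17e-04). Of 14 genes of the outer-membrane and import machinery, 2 rose, against 17.9% of all genes higher, and none fell (median 0.18). These were Tomm20 at 1.23 (adjusted p = 0.00114) and Tomm22 at 0.62 (adjusted p = 0.0345). Of 10 regulators of mitochondrial genes, 3 rose and 3 fell (median -0.56). The coactivator Ppargc1b (PGC-1 beta) fell by 3.26 (adjusted p = 0.00294) and Tfam, the mitochondrial transcription factor, rose by 0.62 (adjusted p = 0.00544).

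At 48 h fewer members were called in liver. Of 39 members tested, 4 (10.3%) were called, which is about the share of all genes (10.2%). Other settings moved that count: weighting the arrays gave 17, fitting the organs together gave 11, and leaving out 1 array gave 2 to 6. The shares of all genes called under those settings are not given here, so these counts show nothing particular to the carriers. The 2 that rose (5.13%, against 6.24% of all genes) were Slc25a4 and Slc25a12, and the 2 that fell (5.13%, against 3.94% of all genes) were Slc25a1 and Slc25a10. The readings lay wholly above sham for 5 members (17.7% of all genes) and wholly below for 6 (10.8% of all genes). The median difference was -0.12 over the members and 0.03 over all genes.

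Citrate carrier Slc25a1 read 10.56, 10.36 and 10.32 at 48 h, all below the lowest sham array of 11.66, a 2.46-fold fall (log2 difference -1.30, SE 0.19, adjusted p = 0.0105). Dicarboxylate carrier Slc25a10 read 11.37, 11.40 and 11.11, a 1.76-fold fall (adjusted p = 0.0141). Both calls were kept under all settings tried except rank product (adjusted p 0.112 and 0.396). Oxoglutarate carrier Slc25a11 was at 10.18, 10.01 and 10.31, overlapping the sham arrays (adjusted p = 0.696).

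Slc25a4, the ADP/ATP carrier that was low in sham liver, rose 2.74-fold, from 8.47, 7.48 and 7.46 to 8.72, 9.54 and 9.50 (log2 difference 1.45, SE 0.33, adjusted p = 0.0364). The highest sham array (A) lay just under the lowest 48 h array. The call was lost without liver sham B or C, without 48 h B or C and without any of the 24 h arrays (adjusted p 0.0581 to 0.122), and with the mean of its 4 probe sets (0.86, adjusted p = 0.0574). Slc25a12 rose 2.13-fold, to 8.71, 9.09 and 9.04 (log2 difference 1.09, SE 0.24, adjusted p = 0.0319), after having fallen at 24 h. This call was lost without 24 h B and without any sham or 48 h array (adjusted p 0.0535 to 0.106), and with the mean of its 3 probe sets the rise was 0.35.

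Several members missed the threshold at 48 h with readings wholly apart from sham. The folate and FAD carrier Slc25a32 read 9.76, 9.25 and 9.63 against 7.56, 8.27 and 8.90 (adjusted p = 0.0500). Slc25a20 read 12.49, 12.49 and 12.94 against 11.70, 11.78 and 11.96 (adjusted p = 0.0590), Slc25a33 read 10.97, 10.71 and 11.11 against 9.23, 9.51 and 10.53 (adjusted p = 0.0679), and Slc25a44 read 8.17, 8.15 and 7.96 against 8.47, 8.95 and 8.71 (adjusted p = 0.0519). Wholly below sham were also Slc25a23 (10.32, 11.11 and 9.98 against 11.17, 11.46 and 11.65, adjusted p = 0.0934), Slc25a51 (log2 difference -0.70, adjusted p = 0.143) and Slc25a39 (-0.26, adjusted p = 0.186).

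Beside the carriers, 6 of 8 enzymes of citrate use and fat synthesis were lower than sham at 48 h (median -1.69), with the desaturase Scd1 at -3.83 (adjusted p = 0.00697), Acacb at -2.01 (adjusted p = 0.00607) and Elovl6 at -2.12 (adjusted p = 0.0176). Of 9 carnitine shuttle and oxidation enzymes, 2 were higher (median 0.35): Crat, which transfers short acyl groups to carnitine, at 2.09 (adjusted p = 0.00992), and Acadm, the medium-chain dehydrogenase, at 0.81 (adjusted p = 0.00939). Of 8 urea cycle enzymes, 3 were lower (median -0.35), namely Cps1, Otc and Oat. The other transporters and relatives had 2 of 12 lower, the import machinery 2 of 14 higher, and the regulators 1 of 10 in each direction. No tested enzyme of the shuttle, haem or folate lists was called at 48 h. Of all genes in liver, 3.94% were lower and 6.24% higher at 48 h. At that time the macrophage markers summed to 13.92 to 14.17 with 3 of 9 higher, the endothelial markers had 1 of 8 higher, and 3 of 8 hepatocyte markers were lower (summed level 18.35 to 18.53). Their part in the values was not tested.

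The step from 24 h to 48 h was tested directly in liver, on arrays shared with the comparisons above. Of 39 members, 14 (35.9%) were called, against 27.8% of all genes: 11 were higher at 48 h (28.2%, against 14.6% of all genes) and 3 lower (7.69%, against 13.1% of all genes). Slc25a13 rose 6.40-fold, from 9.62, 9.08 and 8.13 to 11.98, 11.80 and 11.08 (log2 difference 2.68, SE 0.39, adjusted p = 0.00299). Slc25a20 rose 4.45-fold (adjusted p = 8.53e-04), Slc25a12 4.01-fold (adjusted p = 0.00142, the log2 difference of 2.00 being 0.67 with the mean of its probe sets) and Slc25a11 2.18-fold (adjusted p = 0.00340). Slc25a42 rose 2.81-fold, as did Slc25a47 (adjusted p = 0.00385 and 0.0153), the latter without a call when 48 h A was left out (adjusted p = 0.0521). Slc25a15 rose 2.02-fold (adjusted p = 0.00940). The members that fell were Slc25a17, 2.96-fold (adjusted p = 0.00559), Slc25a29, 2.84-fold (adjusted p = 0.0201, and 0.0633 and 0.0583 without 48 h A or B), and Slc25a44, 2.20-fold (adjusted p = 0.00260). With the mean of the probe sets the log2 differences were 0.77 for Slc25a42, -0.80 for Slc25a17, -0.56 for Slc25a29 and -0.75 for Slc25a44. The citrate carrier Slc25a1 was not called between the times (log2 difference 0.42, adjusted p = 0.154).

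**Figure D3:**
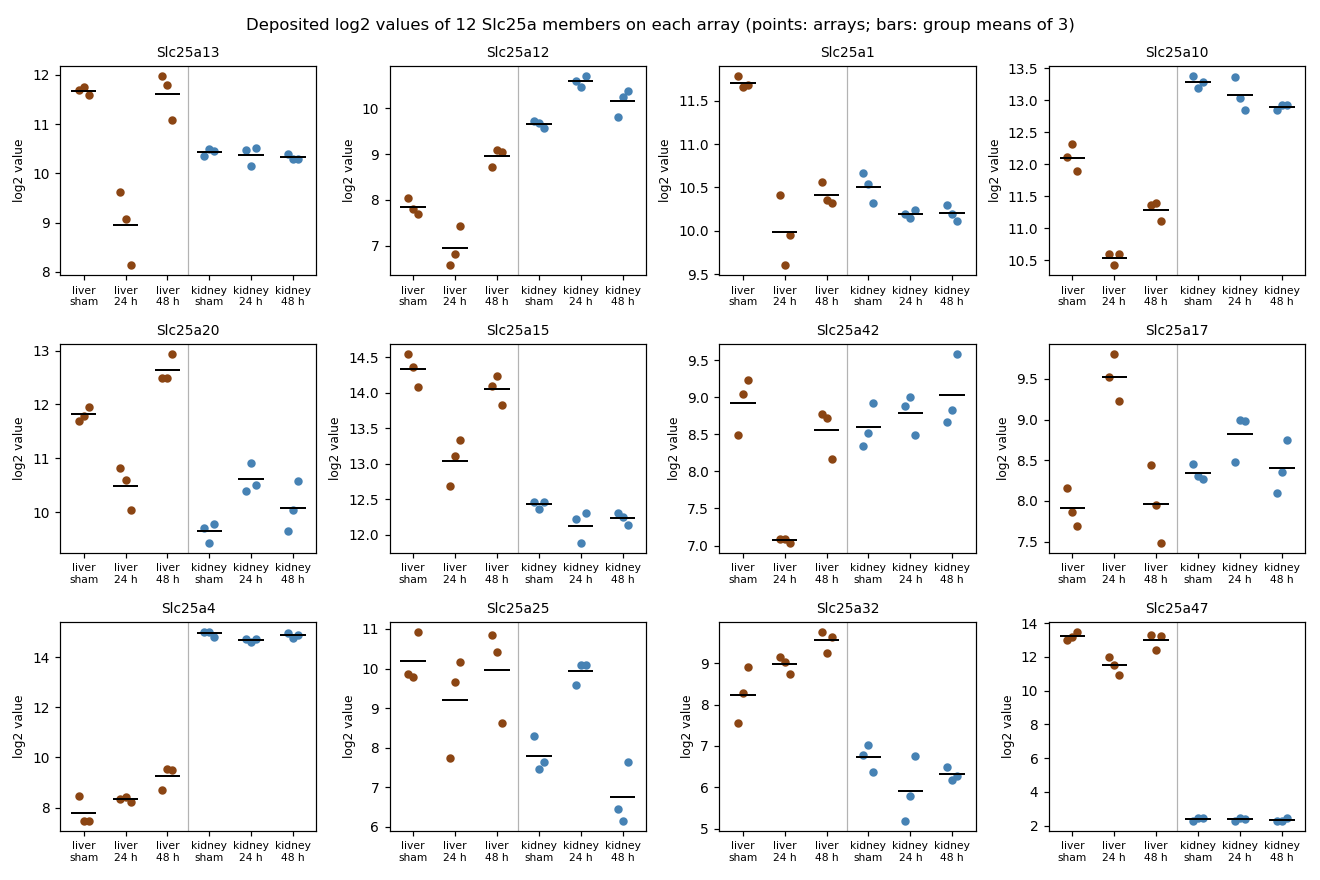
Log2 level on each array for 12 members, by organ and time, 1 point an array (3 a group) with a line at the group mean. In liver Slc25a13 lies at 8.13 to 9.62 at 24 h, below all sham and 48 h arrays, while Slc25a1 is still under 10.60 at 48 h. In kidney Slc25a25 lies at 9.58 to 10.10 at 24 h and at 6.14 to 7.64 at 48 h.

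In kidney few carriers changed. At 24 h, 3 of 37 tested members were called (8.11%, against 5.31% of all genes). All 3 rose (8.11%, against 2.21% of all genes) and none fell (3.10% of all genes). The arrays lay wholly above sham for 9 members (12.7% of all genes) and wholly below for 4 (14.3% of all genes). The median difference was 0.01 over the members and 0.00 over all genes.

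Slc25a25, a calcium-regulated carrier of ATP-magnesium and phosphate whose transcript is known to respond quickly to stimuli in other tissues, read 8.29, 7.47 and 7.63 in sham kidney and 9.58, 10.10 and 10.10 at 24 h. It rose 4.37-fold without overlap (log2 difference 2.13, SE 0.42, adjusted p = 0.0373). At 48 h it read 6.45, 6.14 and 7.64, which was 9.07-fold below 24 h (log2 difference -3.18, SE 0.42, adjusted p = 0.0271) and not called against sham (adjusted p = 0.229). The rise at 24 h was the only member call that rank product also made in kidney at that time, but under limma it was lost without any 1 of the sham or 24 h arrays and without 48 h A or B (adjusted p 0.0505 to 0.125). The later fall was lost without 24 h B or C, 48 h A or B, or sham B (adjusted p 0.0532 to 0.0969). A further probe set of the gene read 1.37 higher at 24 h (adjusted p = 0.0789), and with the mean of its 3 sets, of which 1 stayed at 3.91 in every group, the rise was 1.17 and the later fall -1.72.

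Promoters were searched for short motifs on both strands, in windows from 250 bases before to 50 after a start site (RefSeq, GRCm38.p6), to show the sequence around the members that moved. Windows were listed for 34 of the 44 members. The Slc25a25 window holds the cyclic AMP response element TGACGTCA, shown in capitals in its sequence (5' to 3' on the gene's strand, chr2:32424017-32424316, minus strand), 150 bases before 1 of its 3 listed starts. It was chosen for display after the matches were seen.

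Slc25a25: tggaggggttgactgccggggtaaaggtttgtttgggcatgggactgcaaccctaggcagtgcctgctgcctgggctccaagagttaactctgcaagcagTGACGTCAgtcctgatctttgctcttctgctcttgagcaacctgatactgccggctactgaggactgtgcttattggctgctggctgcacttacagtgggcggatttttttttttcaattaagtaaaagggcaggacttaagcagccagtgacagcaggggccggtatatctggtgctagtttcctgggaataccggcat

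That motif was in the windows of 2.03% of all 27025 symbols and of 2 of the 34 members, Slc25a25 and Slc25a36. The E-box CACGTG was found for 8.09% of symbols and for 7 members, of which 3 (Slc25a1, Slc25a13 and Slc25a15) were among the 13 that fell in liver at 24 h. The windows of the citrate carrier (chr16:17928170-17928469, minus strand) and of citrin (chr6:6217124-6217423, minus strand) are given with the E-box in capitals, at 239 and 125 bases before the start.

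Slc25a1: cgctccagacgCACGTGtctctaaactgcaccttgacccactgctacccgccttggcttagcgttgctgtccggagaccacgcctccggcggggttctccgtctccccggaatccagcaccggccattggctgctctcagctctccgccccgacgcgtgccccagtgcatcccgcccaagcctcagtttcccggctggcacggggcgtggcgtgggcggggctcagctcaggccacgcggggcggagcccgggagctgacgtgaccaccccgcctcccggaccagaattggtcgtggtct
Slc25a13: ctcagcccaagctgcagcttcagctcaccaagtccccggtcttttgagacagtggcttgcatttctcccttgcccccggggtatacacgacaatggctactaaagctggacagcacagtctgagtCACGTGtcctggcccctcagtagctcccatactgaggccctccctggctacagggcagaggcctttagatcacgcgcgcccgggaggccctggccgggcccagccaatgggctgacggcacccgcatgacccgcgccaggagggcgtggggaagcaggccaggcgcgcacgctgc

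The other motifs were common. The ETS core CCGGAAG was found for 9.93% of symbols and 7 members, the CCAAT box for 41.1% and 18, and the GC box GGGCGG for 38.2% and 29. Among the 13 members that fell in liver at 24 h, these 3 motifs were found in 1, 7 and 10. Such a match is a description of the letters and shows no binding.

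Aralar, Slc25a12, read 9.73, 9.67 and 9.56 in sham kidney and 10.59, 10.46 and 10.71 at 24 h, a 1.91-fold rise without overlap (log2 difference 0.94, SE 0.14, adjusted p = 0.0232). At 48 h it read 9.82, 10.25 and 10.37, above every sham array but not called (adjusted p = 0.120). The 24 h call was lost without 24 h B or any sham array (adjusted p 0.0600 to 0.0835), and with the mean of its 3 probe sets the rise was 0.31. The mitoferrin Slc25a28, which brings iron into the matrix in non-erythroid cells, rose 1.54-fold, from 8.58, 8.62 and 8.80 to 9.30, 9.38 and 9.18 (log2 difference 0.62, SE 0.12, adjusted p = 0.0364). That call was lost without 24 h A or B, 48 h B or any sham array (adjusted p 0.0606 to 0.123).

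Slc25a20 read 9.71, 9.42 and 9.77 in sham kidney and 10.39, 10.92 and 10.51 at 24 h. Its groups did not overlap, and the difference of 0.97 missed the threshold (adjusted p = 0.0748). Slc25a16 read 12.79, 12.87 and 12.71 against 11.90, 12.35 and 12.42, with a difference of -0.56 (adjusted p = 0.0672). The abundant ADP/ATP carriers stayed within a narrow band, Slc25a4 at 14.59 to 15.01 and Slc25a5 at 14.93 to 15.07 over the 9 kidney arrays. Within it, Slc25a4 at 24 h lay wholly below sham (14.71, 14.59 and 14.73 against 15.01, 14.99 and 14.80). That difference of -0.26 was not called (adjusted p = 0.109).

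At 48 h no kidney member was called against 2.69% of all genes (1.29% higher and 1.40% lower). Of the 37 tested members, 11 had an unadjusted limma p under 0.05, a count with no share of all genes to set it against. Rank product called 1 member, Slc25a25, lower. The arrays lay wholly above sham for 5 members (11.5% of all genes) and wholly below for 8 (15.6% of all genes). Slc25a28 came nearest to a call (9.02, 9.17 and 9.45, log2 difference 0.55, adjusted p = 0.0659). Between 24 h and 48 h, Slc25a25 was the 1 member of 37 called (2.70%, against 1.61% of all genes). It was lower (0.650% of all genes), and none was higher (0.958% of all genes).

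In kidney, most partner lists had few calls. Of all genes, 2.21% were higher and 3.10% lower at 24 h, and 1.29% higher and 1.40% lower at 48 h. The shuttle enzymes and the regulators had larger shares lower at 24 h than all genes. At 24 h the shuttle enzymes Mdh1 and Mdh2 (malate dehydrogenases of cytosol and matrix) were lower by 0.17 and 0.31 (adjusted p = 0.0482 and 0.0232), 2 of 6 tested, and Hadha, of the mitochondrial trifunctional protein, was higher by 0.55 (adjusted p = 0.0232), 1 of 9. The regulators had 3 of 10 lower: Atf4, the integrated stress response factor, at -1.41 (adjusted p = 0.0250), Tfam at -0.83 (adjusted p = 0.0223) and Gabpa at -0.68 (adjusted p = 0.0198). Lower at 24 h were also Me1 (1 of 8 in the citrate list), Shmt2 (1 of 7 in the folate list) and Tomm20 (1 of 14 in the import list). At 48 h Me1 and Shmt2 were again lower, with Timm8a1 in the import list and Letm1 among the 13 other transporters and relatives. No urea cycle (5 tested) or haem enzyme (9 tested) was called in kidney at either time. Of 8 proximal tubule markers none was called at 24 h, and 1 was higher and 1 lower at 48 h. They summed to 17.53 to 17.72 in sham kidney, 17.42 to 17.49 at 24 h and 17.61 to 17.71 at 48 h. Of the distal nephron markers, 2 of 8 were higher at 24 h and 1 at 48 h, and 1 of 5 cholangiocyte markers, Krt7, was higher at 24 h. Fat markers summed to 12.71 to 14.02 in sham kidney, 11.92 to 14.68 at 24 h and 11.73 to 14.66 at 48 h. Their part in the values was not tested.

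Whether the organs responded differently was tested on the difference of the responses itself, kidney minus liver, over all 18 arrays. At 24 h, 15 of 39 members (38.5%) were called, against 30.3% of all genes. The kidney response lay above the liver response for 13 (33.3%, against 13.8% of all genes) and below for 2 (5.13%, against 16.5% of all genes). Slc25a25 stood at -0.99 in liver (adjusted p = 0.394) and 2.13 in kidney (difference 3.12, SE 0.92, adjusted p = 0.0200), and the difference was 1.67 with the mean of its 3 probe sets. Slc25a13 fell by 2.74 in liver and stood at -0.06 in kidney (difference 2.68, SE 0.41, adjusted p = 2.82e-04). Slc25a20 was lower in liver (-1.33) while its kidney value was 0.97 (difference 2.30, SE 0.34, adjusted p = 2.16e-04), and Slc25a12 fell in liver and rose in kidney (-0.91 and 0.94, difference 1.85, SE 0.28, adjusted p = 2.74e-04, and 0.63 with the mean of its 3 probe sets). For Slc25a47 the kidney side was at background at both times, so its called difference restates the liver fall.

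At 48 h the difference between the organs was called for 6 of 39 members (15.4%, against 13.1% of all genes), with 4 above (10.3%, against 4.68% of all genes) and 2 below (5.13%, against 8.41% of all genes). Slc25a4 rose in liver and stood at -0.07 in kidney (difference -1.53, SE 0.34, adjusted p = 0.0108, and -0.89 with the mean of its 4 probe sets). Slc25a44 had -0.62 in liver and 0.57 in kidney (difference 1.19, SE 0.26, adjusted p = 0.00858), neither called alone. Slc25a32 went the other way, with 1.31 in liver and -0.41 in kidney, where it read 6.77, 7.02 and 6.38 in sham and 6.50, 6.18 and 6.28 at 48 h (difference -1.71, SE 0.52, adjusted p = 0.0433), a call kept in 11 of the 28 other settings.

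**Figure D4:**
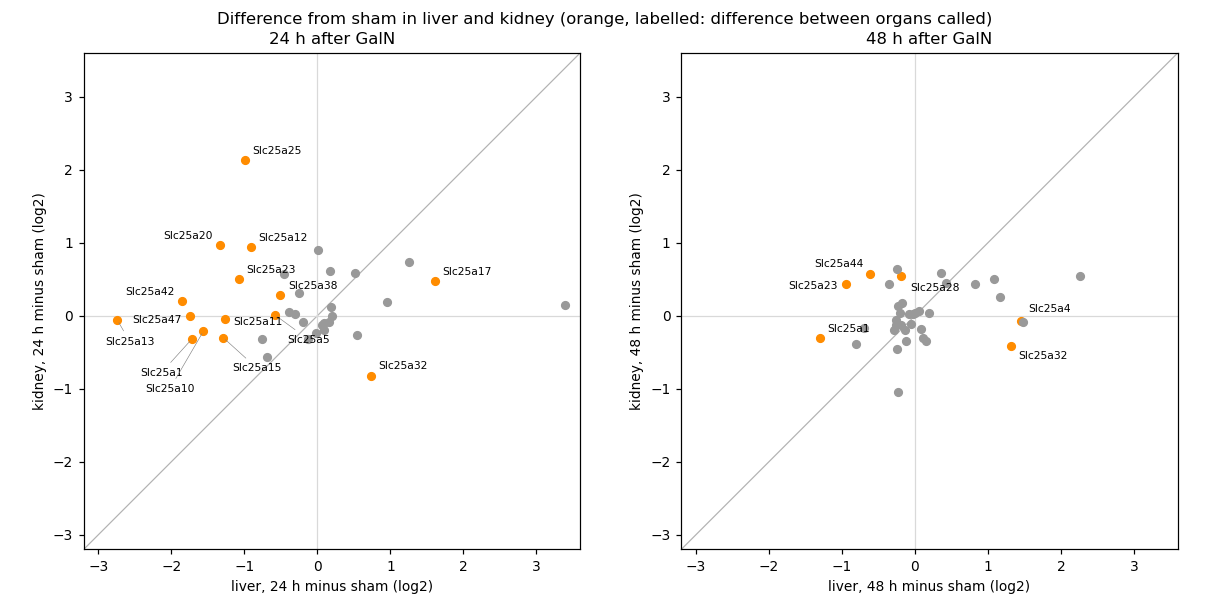
Difference from sham in kidney (vertical, log2) against that in liver (horizontal, log2) at 24 h and 48 h, 1 point a member. Orange, labelled points are the members whose responses were called different between the organs, 15 at 24 h and 6 at 48 h, and the diagonal marks equal responses. At 24 h the called points lie mainly to the left, low in liver and near 0 or higher in kidney.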

How the data were processed

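Liver and kidney RNA of mice was measured on 18 single-colour Affymetrix mouse genome arrays, 3 in each of 6 groups taken from the sample titles. The deposited values are log2 intensities that the authors preprocessed with the R packages affy and gcRMA, per the series' design text; versions are not given in the sources used here. The label field names Cy3.

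Of 45101 probe sets, 34945 were named for exactly 1 gene, 932 for several and 9160 for none in the platform annotation, and 64 were controls; no symbol changed when updated through its gene identifier (34741 sets matched). Genes above percentile 50 of the array on at least 3 arrays were tested with limma 3.58.1 in R 4.3.3 (lmFit and eBayes with an intensity trend, two-sided): 9 arrays of 1 organ, or all 18 for comparisons between organs. p-values were adjusted over all genes tested (Benjamini-Hochberg). Promoter windows are RefSeq's.

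The alternatives were other filters, probe set rules, normalizations, variance models, sample sets and rank product (9 pairwise differences, 100 permutations), the replicate letter as a block, and leaving out each array. The members and gene lists were chosen with earlier results of these data known. Members with values on every array are those called against sham with a log2 difference of at least 1, or whose organ responses differed by at least 1; others are summarised by role. Of partner lists, up to 3 called genes with the smallest p are named. The rule for background readings was chosen after the values were seen. Arrays hold no read depth: their number limits the precision. Some genes of the family are not reported here.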

Additional observations from a re-analysis of the deposited data

Results flagged for a closer look

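The response to GalN differed between the organs, by a test of the difference itself (limma, all 18 arrays, kidney minus liver, log2), for 15 members at 24 h and 6 at 48 h. At 24 h the difference was positive, that is, the kidney response lay above the liver response, for Slc25a25 (3.12), Slc25a13 (2.68), Slc25a20 (2.30), Slc25a42 (2.05), Slc25a12 (1.85), Slc25a47 (1.74), Slc25a23 (1.58), Slc25a1 (1.41), Slc25a10 (1.36), Slc25a11 (1.22), Slc25a15 (1.00), Slc25a38 (0.79) and Slc25a5 (0.59). It was negative for Slc25a32 (-1.54) and Slc25a17 (-1.14). The adjusted p ran from 1.25e-04 for Slc25a10 to 0.0361 for Slc25a32. Slc25a25 differed with an adjusted p of 0.0200, and its liver readings at 24 h (7.75, 9.67 and 10.17) were far apart. For Slc25a17 the call was lost without liver 24 h B, liver sham C or kidney 24 h A (adjusted p 0.0512 to 0.0564), for Slc25a32 without any of 8 single arrays (0.0614 to 0.0877), and for Slc25a38 without any of 7 (0.0538 to 0.0725).

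At 48 h the difference was positive for Slc25a23 (1.38), Slc25a44 (1.19), Slc25a1 (0.99) and Slc25a28 (0.73), and negative for Slc25a32 (-1.71) and Slc25a4 (-1.53). The adjusted p ran from 0.00858 for Slc25a44 to 0.0433 for Slc25a32, whose call was lost without any of 12 single arrays (0.0505 to 0.103). The other 5 calls were kept in all 28 other settings. Rank product was not among these, because it was run only for comparisons within an organ.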

How the results depend on the processing

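Counts of called members kept within 1.5 times of the reported value in all settings except the replicate block and these. Under rank product they were 2 in liver at 24 h, 1 in liver at 48 h, 1 between liver 24 h and 48 h, 1 in kidney at 24 h and 1 in kidney at 48 h. With array weights they were 17 in liver and 5 in kidney at 48 h, 5 in kidney at 24 h, and 13 for the organ difference at 48 h. With no filter on low values, liver at 48 h had 2 and kidney at 24 h had 1. With every probe set on its own, kidney had 5 at 24 h and 2 at 48 h. All 18 arrays in 1 fit gave 11 in liver at 48 h. The 6 arrays compared alone gave 1 in kidney at 24 h, 1 at 48 h and 0 between the times. Leaving out 1 array gave 12 to 15 in liver at 24 h, 2 to 6 at 48 h and 12 to 15 between the times, 0 to 3, 0 to 1 and 0 to 1 in kidney, 12 to 17 and 5 to 9 for the organ difference at 24 h and 48 h, and 24 to 28 between sham organs. All these counts are given without the share of all genes called in the same setting. A changed count therefore shows nothing particular to the members. Centring on percentile 75 shifted the median of all genes in liver at 24 h from 0.00 to -0.15, and the share of called members that were higher from 18.8% to 7.14%; with no filter it was 8.33%. In sham organs that centring moved the share higher in liver from 44.4% to 58.6% and turned Slc25a39 from -0.29 to 0.10. Over the members called in the reported fits, 1962 values kept the call, 216 lost it and 1 changed sign. Members not called there are outside this tally. The cause was not tested.

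Whether the replicate letters pair the samples is not known. Deviations of same-letter arrays correlated above 0.1 in 1 of 18 pairs within an organ (r -0.125 to 0.229). These pairs join different groups, hence different mice, so they cannot show whether liver and kidney arrays share a mouse. Of 9 same-letter pairs of liver and kidney of 1 treatment, 2 lay above 0.1, sham A (0.222) and sham C (0.253). With the replicate block, 12 members were called in liver at 24 h, 2 at 48 h and 13 between the times, 0 in kidney at 24 h, 48 h and between them, 16 and 5 for the organ difference, and 27 between sham organs. Shares of all genes under the block are not given here either.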

Other observations

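Of the 16 members called in liver at 24 h, 15 were called again when every probe set was tested on its own. Of their 15 further tested probe sets, 14 had the same direction, 9 were called the same way and 0 the opposite way. In sham organs, 26 of 31 further sets had the same direction and 24 were called.

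Slc25a30 was called higher in liver at 24 h by rank product, and by limma without liver sham C. Slc25a24, a calcium-regulated carrier of ATP-magnesium and phosphate, read 6.41, 4.85 and 4.79 in sham liver and 6.36, 7.17 and 6.95 at 48 h (log2 difference 1.48, adjusted p = 0.0889), and it was called with array weights, in the fit of all 18 arrays and without liver sham A. Slc25a22 read 11.57, 11.55 and 9.88 in liver at 48 h, the lowest on array C, which also had the widest 3' to 5' gap.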
